A study of Mus musculus with 12 samples.

Results

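The 9 genes described here govern whether an innate lymphoid cell (ILC) stays in a tissue or leaves it: S1pr1, Klf2, Ccr7, Cxcr4, Cxcr6, Itga4, Itgb7, Itgae and Cd69. They were chosen by symbol among the 32285 genes of the deposited feature lists, and all 9 were present there. Their unique molecular identifiers (UMIs, each standing for 1 captured RNA molecule) were read in 7026 synovial ILCs of 12 hashtags in 4 wells. Levels are given as CPM, the UMIs of a gene per 1000000 UMIs of the cells summed.

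As background, lymphocytes leave tissues toward sphingosine 1-phosphate, a lipid that is abundant in blood and lymph, through its receptor S1PR1. The transcription factor KLF2 drives S1pr1 transcription, and the surface protein CD69 binds S1PR1 and takes it from the membrane. Chemokine receptors and integrins then set where a cell goes and what it holds on to. ILCs are lymphocytes without rearranged antigen receptors that mostly live in tissues. Group 2 cells (ILC2) make IL-5 and IL-13 and group 3 cells (ILC3) make IL-17 and IL-22.

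All mice were R5 x R26tdTomato, 8 to 10 weeks old, with the genotype Il5 wt/Cre and R26 tdTom/tdTom. In these mice tdTomato marks each cell that has expressed the Il5 allele, so ILCs that never used it were not sampled, and the healthy mice carry the same Cre allele as the others. Live cells of ankle and wrist synovium were sorted as CD45+ and tdTomato+ and negative for CD3, both T cell receptor types, CD11b and GR-1. Experiment 1 had 3 wells, each with 3 hashed mice of 1 condition. The conditions were healthy (untreated), STA (arthritis induced by serum transfer) and STA + Il23mc (the same with an IL-23 minicircle, a DNA circle from which the mouse makes the cytokine). Condition and well cannot be told apart there. In experiment 2, 1 well held 3 ILC hashtags, named healthy, STA (mild) and STA (severe); how many animals stand behind each is not given, and the labels speak of 4 animals per well.

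Cell classes were the authors' own for 4491 cells. The STA well of experiment 1 and the STA hashtags of experiment 2 are absent from the authors' table, so their hashtags were called anew (HTODemux, which gave cells of that table the authors' hashtag in 98.3 to 98.6% in experiment 1 and in 70.3% in the ILC well of experiment 2) and the classes of their 2535 cells were passed on from annotated cells, with the 9 genes left out of the features. The ILC2 sums per mouse in experiment 1 held 183 to 417 cells and 795046 to 2030655 UMIs. All 12 genes of the ILC2 marker list had UMIs in them, with summed levels of 6942 to 10370 CPM, and Gata3 stood at 1012 to 1431 CPM. Wells shared 0 to 7 cell barcodes.

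A few libraries stood apart. The ILC2 sum of STA mouse 2 held the immunoglobulin gene Igkc at 8205 CPM and the mast cell protease gene Mcpt4 at 629 CPM, against at most 31.6 and 3.72 CPM in the other 8 mice. Cells with a Cd3d, Cd3e or Cd3g UMI made up 43.5% of the ILC2 cells of STA + Il23mc mouse 1 and 10.3 to 22.6% in the other mice, although CD3+ cells were sorted out. Summed over the 10 T cell markers, ILC2 cells held 787 to 974 CPM in healthy, 980 to 1098 in STA and 604 to 2915 CPM in STA + Il23mc mice. The ILC3 list summed to 634 to 759 CPM in ILC2 cells of healthy, 626 to 766 in STA and 909 to 3428 CPM in STA + Il23mc mice, and the NK and ILC1 list to 0 to 0.888, 1.86 to 38.7 and 5.06 to 86.9 CPM. The dendritic and myeloid list summed to 17.6 to 23.1 CPM in healthy, 67.3 to 194 in STA and 99.2 to 117 CPM in STA + Il23mc mice. What such cells add to the results below was not tested, except where a value without them is given.

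In ILC2 cells of arthritic mice the exit receptor gene S1pr1 was lower and the chemokine receptor gene Cxcr6 was higher than in healthy mice, with and without Il23mc. Cxcr4 was higher with Il23mc than in healthy mice, and Itgb7 was higher with Il23mc than in STA alone. All 9 members passed the filter on low counts. For STA against healthy, 1 of the 9 rose and 1 fell at an adjusted p under 0.05 (edgeR quasi-likelihood test on UMI sums per mouse), where 1.46% of the 7276 genes tested rose and 1.09% fell. For STA + Il23mc against STA, 1 rose and 0 fell (edgeR), where 1.15% of genes rose and 0.55% fell; 1 member, Ccr7, was lower at an unadjusted p under 0.05, and DESeq2 called 0 lower. For STA + Il23mc against healthy, 2 rose and 1 fell (edgeR), where 4.52% of genes rose and 2.72% fell. The comparisons share their groups of mice. The median log2 change of the 9 members was -0.32, 0.13 and 0.25 in that order, beside -0.01, 0.01 and -0.01 over all genes tested. Groups did not overlap for 2 members higher and 2 lower in STA against healthy (8.64% and 14.6% of all genes), for 2 higher and 0 lower in STA + Il23mc against STA (6.62% and 9.54%), and for 3 higher and 1 lower in STA + Il23mc against healthy (7.9% and 16.6%). Sums per mouse alone do not tell fewer cells that carry a transcript from less RNA per cell. Shares of cells with a UMI are given below for S1pr1 and Cd69.

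**Figure D1:**
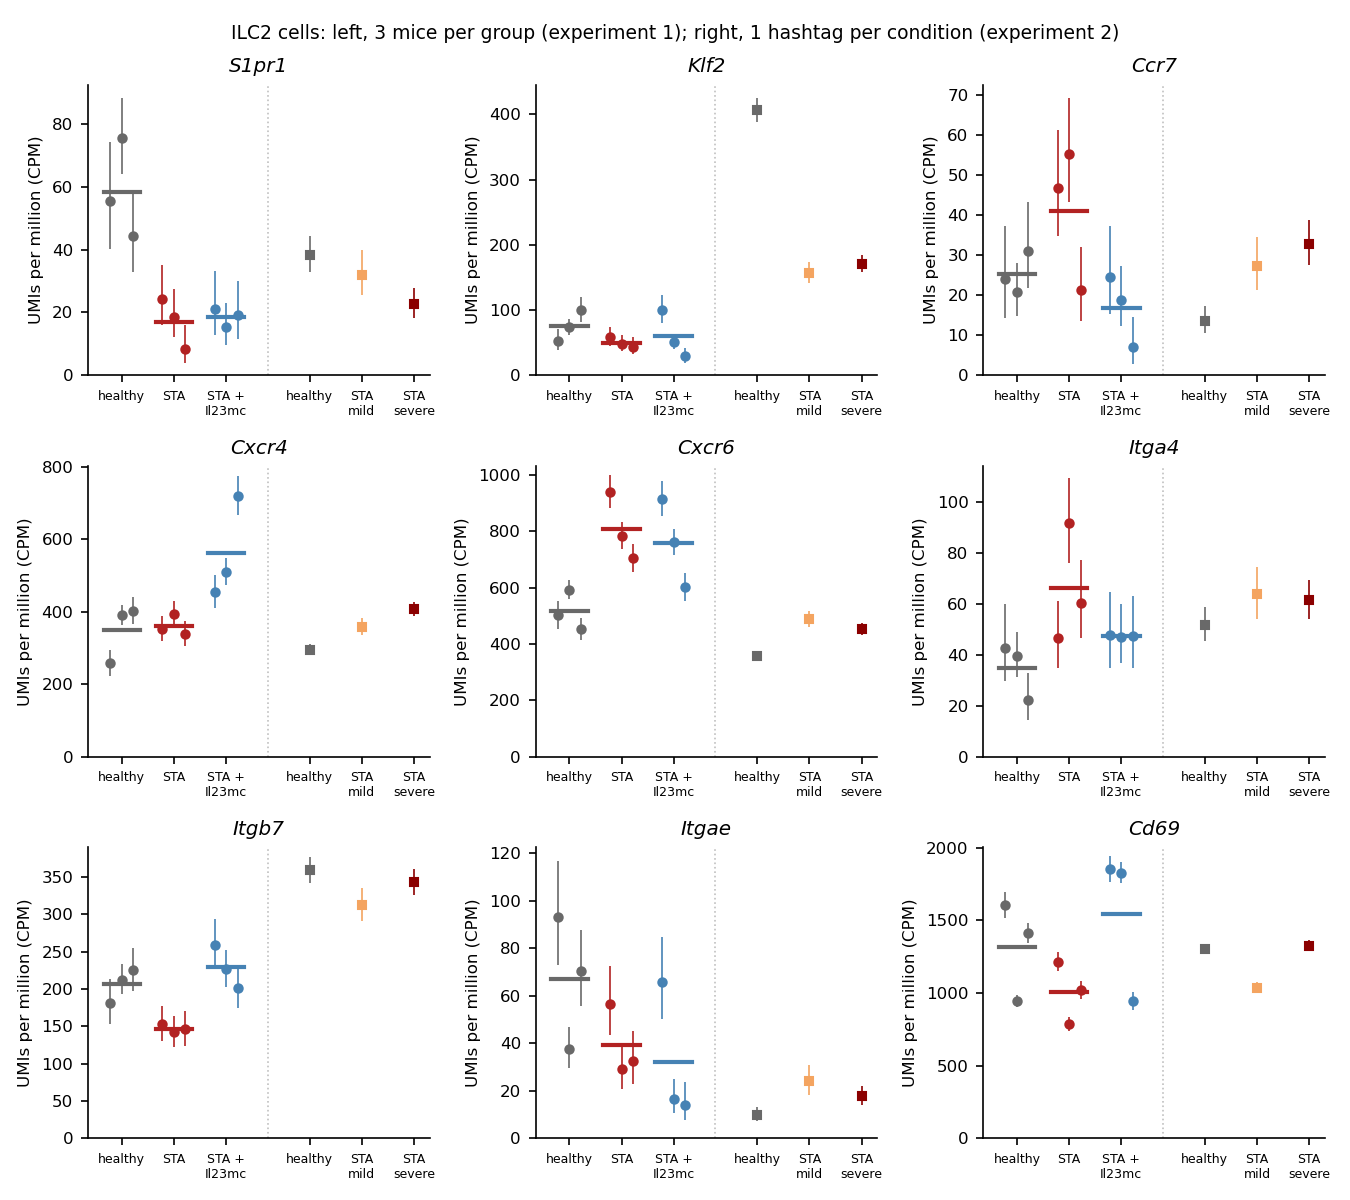
Levels of the 9 members in ILC2 cells, in CPM, with 95% exact Poisson intervals that cover counting error only. Circles are mice of experiment 1 (3 per group, bar = mean) and squares are the single hashtags per condition of experiment 2; S1pr1 in healthy mice lies at 44.4 to 75.4 CPM, above every STA and STA + Il23mc mouse (8.37 to 24.2 CPM).

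S1pr1 lies on chromosome 3 at chr3:115710433-115715072 (minus strand, mm10). In ILC2 cells of healthy mice 1, 2 and 3 it was read at 55.3, 75.4 and 44.4 CPM, from 44, 153 and 50 UMIs. STA mice 1, 2 and 3 held 24.2, 18.6 and 8.37 CPM, from 27, 25 and 9 UMIs. STA + Il23mc mice 1, 2 and 3 held 21.2, 15.3 and 19.2 CPM, from 19, 22 and 19 UMIs. Every arthritic mouse lay below every healthy mouse, and the STA and STA + Il23mc mice overlapped.

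S1pr1 fell by 1.72 on the log2 scale in STA against healthy (SE 0.30, adjusted p = 0.00676, edgeR), a fitted group level 3.30-fold lower. In STA + Il23mc against healthy it fell by 1.60 (SE 0.30, adjusted p = 0.00417, edgeR), a fitted group level 3.03-fold lower. In both, 3 of 3 mice lay below all healthy mice, by folds that differed between mice. STA + Il23mc and STA differed by 0.13 (SE 0.35, adjusted p = 0.949, edgeR). The STA cells got their class in another way than those of the other 2 conditions; when HTODemux calls and passed-on classes were used for every well, both falls were called, at -1.83 (adjusted p = 0.00418) and -1.75 (adjusted p = 0.0027, edgeR). The first was not called without healthy mouse 2 (-1.43, adjusted p = 0.0533, edgeR), and without STA mouse 2 it was -1.81 (adjusted p = 0.0287, edgeR). Over all hashtag-called cells with no class, neither was called: -1.25 (adjusted p = 0.325) and -0.75 (adjusted p = 0.342, edgeR). Without cells holding a Cd3 UMI both remained called, at -1.73 (adjusted p = 0.00271) and -1.44 (adjusted p = 0.00657, edgeR) on the log2 scale.

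In experiment 2 the ILC2 level of S1pr1 was 38.4 CPM in the healthy, 32.1 in the STA (mild) and 22.6 CPM in the STA (severe) hashtag. Against healthy the log2 ratio was -0.26 for mild (95% counting interval -0.66 to 0.13) and -0.77 for severe STA (-1.14 to -0.40). The severe hashtag lay below the healthy one beyond counting error and the mild hashtag did not. These intervals cover counting error only, and there is no replicate check. In every experiment 2 ratio to healthy, the healthy cells have the authors' hashtags and classes and the STA cells have HTODemux calls and passed-on classes. The check with 1 rule for all cells was made in experiment 1 only.

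The share of ILC2 cells with a S1pr1 UMI, with each cell thinned to 2000 UMIs, was 6.01, 12.7 and 7.42% in healthy, 4.32, 4.59 and 1.99% in STA, and 5.76, 3.38 and 3.49% in STA + Il23mc mice 1, 2 and 3. Without thinning the shares were 12.0 to 22.8%, 4.48 to 9.63% and 5.07 to 7.85%, at median depths of 4112 to 4657, 5043 to 5598 and 3588 to 4365 UMIs per cell. All 3 healthy shares were above all 6 arthritic shares on both scales. The fibroblast wells gave 1.42 to 3.48% after thinning, at median depths of 7748 to 17370 UMIs per cell before it. The thinned shares of STA mouse 3 and of STA + Il23mc mice 2 and 3 lie within that range or at its edge. They are read as no higher than in the fibroblast wells. Whether the S1pr1 UMIs of those wells are background or expression was not tested. The falls given above rest on the same low counts.

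Klf2, the transcription factor that drives S1pr1 transcription, lies at chr8:72319033-72321656 (plus strand, mm10). Its ILC2 level was 52.8, 73.4 and 99.5 CPM in healthy, 58.3, 48.4 and 43.7 CPM in STA, and 100.3, 50.6 and 29.4 CPM in STA + Il23mc mice 1, 2 and 3. The groups overlapped in both comparisons with healthy. The log2 change was -0.53 in STA against healthy (SE 0.31, adjusted p = 0.454) and -0.26 in STA + Il23mc against healthy (SE 0.31, adjusted p = 0.707, edgeR). In STA + Il23mc mouse 1, 83.3% of the Klf2 UMIs lay in the 43.5% of ILC2 cells with a Cd3 UMI. Without the Cd3 cells that mouse stood at 33.8 CPM.

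Experiment 2 gave other Klf2 values. The healthy hashtag held 407 CPM in ILC2 cells, the STA (mild) hashtag 158 and the STA (severe) hashtag 171 CPM. The log2 ratios to healthy were -1.37 (95% counting interval -1.53 to -1.21) and -1.25 (-1.38 to -1.13), both below 0. All 3 hashtags stood above all 9 mice of experiment 1. Fibroblasts showed the same order of the experiments, with 285 to 361 CPM in experiment 1 and 596 to 722 CPM in experiment 2, where the healthy hashtag, at 693 CPM, lay between the STA ones. What sets the experiments apart was not tested.

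Because KLF2 acts on S1pr1, ILC2 cells with and without a S1pr1 UMI were compared within each mouse. Only healthy mice 1, 2 and 3 and STA mouse 2 had at least 20 ILC2 cells on both sides, and the other mice had 9 to 17 cells with a S1pr1 UMI. The log2 ratio of Klf2 in cells with over cells without was 0.54, 0.64 and -0.87 in healthy mice 1, 2 and 3 and 0.07 in STA mouse 2. Klf2 was higher in 3 of 4 mice, with a mean of 0.10 (SD 0.69, n = 4; two-sided exact sign-flip permutation test, p = 0.875, adjusted over 8 genes 0.875). The smallest p that this exact test can give with 4 mice is 0.125. With cells thinned to 2000 UMIs only healthy mouse 2 kept enough cells, and its Klf2 value was -0.67 in 1 random draw and 0.69 in a second, drawn after seeing the data. Without Cd3 cells healthy mice 2 and 3 were left, at 0.76 and -1.86. No direction of Klf2 with S1pr1 can be read from these mice. Cd69 was lower in the cells with a S1pr1 UMI in 4 of 4 mice (mean log2 ratio -0.54, SD 0.22, n = 4; exact p = 0.125, adjusted 0.333). Cxcr6 was higher in 4 of 4 mice (0.42, SD 0.26, n = 4; exact p = 0.125, adjusted 0.333) and Itga4 lower in 4 of 4 (-0.44, SD 0.29, n = 4; exact p = 0.125, adjusted 0.333). Cells with a S1pr1 UMI were deeper in each of these mice, with median depths of 4341 to 6593 against 4078 to 5412 UMIs.

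Ccr7, the receptor for CCL19 and CCL21 that draws cells toward lymph nodes, lies at chr11:99144196-99155077 (minus strand, mm10). It was read at 23.9, 20.7 and 31.1 CPM in healthy, 46.6, 55.1 and 21.4 in STA, and 24.5, 18.7 and 7.08 CPM in STA + Il23mc mice 1, 2 and 3. STA mice 1 and 2 were highest and STA mouse 3 lay among the healthy mice. No comparison was called (0.81, SE 0.34, adjusted p = 0.275 in STA against healthy; -1.26, SE 0.37, adjusted p = 0.130 in STA + Il23mc against STA; -0.46, SE 0.39, adjusted p = 0.575 in STA + Il23mc against healthy, edgeR). Against STA it was called without STA mouse 3 (-1.55, adjusted p = 0.0330), with no filter on low counts (-1.26, adjusted p = 0.000352) and over all hashtag-called cells with no class (-2.54, adjusted p = 0.0030, edgeR). With no class it was also called against healthy (-1.79, adjusted p = 0.00975, edgeR). The 5% of ILC2 cells with most Ccr7 UMIs carried 73.9 to 100% of them in each mouse. Where counts are low this share is set by the count, as in STA + Il23mc mouse 3 with 7 UMIs in 7 cells. S1pr1 also reached 100% in STA mouse 3, with 9 UMIs in 9 cells. The range is thus not read as particular to Ccr7. In STA mouse 2, which had most Ccr7 UMIs, 74 UMIs lay in 17 cells and the share was 91.9%. In experiment 2 the level was 13.6 CPM in healthy, 27.3 in mild and 32.8 CPM in severe STA. The log2 ratios to healthy were 1.00 (95% counting interval 0.49 to 1.52) and 1.27 (0.83 to 1.73), both above 0.

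Promoters are shown for the 3 members called in ILC2 cells whose start RefSeq (GRCm38.p6) lists here, since KLF2 and its relatives bind a core motif, CACCC on the gene's strand or GGGTG where it is on the other. Each stretch runs from 250 bases before to 50 bases after the start, 5′ to 3′ on the gene's strand, and capitals mark that motif. The motif is in 18895 of 32851 promoters of this length (57.5%). Of the 5 members with a promoter entry, 4 held it.
Cxcr4, chr1:128592250-128592549, minus strand: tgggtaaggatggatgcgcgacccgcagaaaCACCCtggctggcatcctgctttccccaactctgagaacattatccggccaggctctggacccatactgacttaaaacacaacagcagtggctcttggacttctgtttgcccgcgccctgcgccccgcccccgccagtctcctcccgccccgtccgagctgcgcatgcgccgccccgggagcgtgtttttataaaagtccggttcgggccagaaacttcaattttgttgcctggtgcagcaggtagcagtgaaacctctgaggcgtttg
Cxcr6, chr9:123806227-123806526, plus strand: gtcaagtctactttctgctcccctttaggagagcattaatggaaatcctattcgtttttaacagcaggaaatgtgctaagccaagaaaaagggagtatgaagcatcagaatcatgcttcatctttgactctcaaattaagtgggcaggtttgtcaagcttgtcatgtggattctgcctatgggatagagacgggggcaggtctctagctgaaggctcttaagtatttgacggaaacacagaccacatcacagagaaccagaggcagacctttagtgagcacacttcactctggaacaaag
Itgb7, chr15:102231886-102232185, minus strand: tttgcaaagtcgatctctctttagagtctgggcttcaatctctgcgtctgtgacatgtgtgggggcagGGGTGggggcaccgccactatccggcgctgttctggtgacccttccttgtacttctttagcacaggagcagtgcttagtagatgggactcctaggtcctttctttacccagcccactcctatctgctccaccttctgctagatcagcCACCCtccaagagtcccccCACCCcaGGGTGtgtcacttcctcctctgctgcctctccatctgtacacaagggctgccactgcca
The Cxcr4 window holds the motif 1 time, the Itgb7 window 4 times and the Cxcr6 window 0 times. A match is a run of letters, and no binding was measured.

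Cxcr4 encodes the receptor for CXCL12, which holds lymphocytes in bone marrow and other stromal tissues, and lies at chr1:128588199-128592293 (minus strand, mm10). In ILC2 cells it was read at 258, 392 and 402 CPM in healthy, 352, 394 and 338 CPM in STA, and 455, 509 and 720 CPM in STA + Il23mc mice 1, 2 and 3. All STA + Il23mc mice stood above all other mice, and STA and healthy mice overlapped. Cxcr4 rose by 0.79 in STA + Il23mc against healthy (SE 0.20, adjusted p = 0.0258, edgeR), 1.73-fold. Against STA it was 0.68 higher (SE 0.20) without passing (adjusted p = 0.139, edgeR), and it passed where every well had HTODemux calls and passed-on classes (0.73, adjusted p = 0.0131, edgeR). In STA against healthy the change was 0.11 (SE 0.20, adjusted p = 0.846, edgeR). The call against healthy was lost without any 1 of the healthy mice and without STA + Il23mc mouse 2 or 3 (adjusted p 0.0535 to 0.104, edgeR). It held without STA + Il23mc mouse 1 (0.95, adjusted p = 0.00532, edgeR). It also held without an STA mouse, which is in neither group, so these fits hardly moved the value (0.7896 to 0.7922). In experiment 2 the hashtags read 295 CPM in healthy, 358 in mild and 406 CPM in severe STA, with log2 ratios to healthy of 0.28 (95% counting interval 0.15 to 0.40) and 0.46 (0.36 to 0.56).

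Cxcr6 encodes the receptor for CXCL16 and marks lymphocytes that reside in liver, lung and other tissues; it lies at chr9:123806475-123811760 (plus strand, mm10) and overlaps Fyco1 on the other strand. ILC2 cells held 503, 594 and 453 CPM in healthy, 941, 783 and 705 CPM in STA, and 915, 762 and 601 CPM in STA + Il23mc mice 1, 2 and 3. Every arthritic mouse stood above every healthy mouse, by a narrow margin for STA + Il23mc mouse 3. Cxcr6 rose by 0.71 in STA against healthy (SE 0.16, adjusted p = 0.0315, edgeR), 1.63-fold, and by 0.65 in STA + Il23mc against healthy (SE 0.16, adjusted p = 0.0244, edgeR), 1.57-fold. STA + Il23mc and STA differed by -0.06 (SE 0.16, adjusted p = 0.949, edgeR). The first call was lost without healthy mouse 1 or 3 or STA mouse 1 or 2 (adjusted p 0.0944 to 0.167, edgeR), of which STA mouse 2, the one with immunoglobulin and mast cell RNA, left 0.72 (adjusted p = 0.0944, edgeR). The second was lost without healthy mouse 1 or 3 or STA + Il23mc mouse 1 or 2 (adjusted p 0.0636 to 0.123), and with HTODemux calls and passed-on classes for every well it was 0.25 (adjusted p = 0.366, edgeR). Over all hashtag-called cells with no class neither was called: 0.13 (adjusted p = 0.919) and 0.63 (adjusted p = 0.268, edgeR). In experiment 2 the level was 356 CPM in healthy, 490 in mild and 454 CPM in severe STA, with log2 ratios of 0.46 (95% counting interval 0.35 to 0.57) and 0.35 (0.25 to 0.44).

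Itga4 encodes the α4 chain that pairs with β7 or β1 to bind MAdCAM-1, VCAM-1 and fibronectin; it lies at chr2:79255426-79333123 (plus strand, mm10) and overlaps Cerkl on the other strand. Its ILC2 level was 42.8, 39.4 and 22.2 CPM in healthy, 46.6, 91.6 and 60.4 in STA, and 47.9, 47.1 and 47.6 CPM in STA + Il23mc mice 1, 2 and 3. No arthritic mouse was below a healthy mouse. The change of 1.01 in STA against healthy (SE 0.28) did not pass (adjusted p = 0.0696, edgeR), and DESeq2 gave an adjusted p of 0.0457. STA mouse 2 was the highest, and without it the change was 0.67 (adjusted p = 0.344, edgeR). In STA + Il23mc the change was 0.55 against healthy (SE 0.29, adjusted p = 0.302) and -0.45 against STA (SE 0.27, adjusted p = 0.566, edgeR).

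Itgb7 encodes the β7 chain shared by the gut-homing α4β7 and the epithelium-binding αEβ7 integrins, and lies at chr15:102215995-102231944 (minus strand, mm10). Its ILC2 level was 181, 212 and 225 CPM in healthy, 152, 142 and 146 CPM in STA, and 259, 227 and 201 CPM in STA + Il23mc mice 1, 2 and 3. The STA mice were lowest, overlapped with no other group and lay close together. Itgb7 rose by 0.67 in STA + Il23mc against STA (SE 0.14, adjusted p = 0.0186, edgeR), 1.59-fold. Against healthy the change was -0.42 in STA (SE 0.14, adjusted p = 0.126) and 0.25 in STA + Il23mc (SE 0.13, adjusted p = 0.319, edgeR). The call was lost without STA mouse 1, 2 or 3 or STA + Il23mc mouse 2 (adjusted p 0.0795 to 0.105, edgeR), with values of 0.66 to 0.68. In experiment 2 Itgb7 read 359 CPM in healthy, 313 in mild and 343 CPM in severe STA.

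Itgae encodes the αE chain CD103, which binds E-cadherin and marks resident lymphocytes in epithelia; it lies at chr11:73090583-73147446 (plus strand, mm10) and overlaps Haspin on the other strand. ILC2 cells held 93.1, 37.4 and 70.2 CPM in healthy, 56.5, 29.0 and 32.5 in STA, and 65.7, 16.6 and 14.2 CPM in STA + Il23mc mice 1, 2 and 3. The groups overlapped in each comparison, and mice of 1 group differed several-fold. No change passed (-0.65, SE 0.43, adjusted p = 0.530 in STA and -0.97, SE 0.45, adjusted p = 0.248 in STA + Il23mc against healthy; -0.33, SE 0.47, against STA, edgeR). Without STA + Il23mc mouse 1 the change against healthy was -1.87 and passed (adjusted p = 0.00713, edgeR). In experiment 2 both STA hashtags lay above the healthy one, with 9.70 CPM in healthy, 24.0 in mild and 17.6 CPM in severe STA, and log2 ratios of 1.31 (95% counting interval 0.73 to 1.90) and 0.86 (0.31 to 1.43).

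Cd69, whose product holds S1PR1 inside the cell and is also an early activation marker, lies at chr6:129267325-129275436 (minus strand, mm10). It was read in ILC2 cells at 1604, 943 and 1413 CPM in healthy, 1213, 786 and 1019 CPM in STA, and 1851, 1830 and 943 CPM in STA + Il23mc mice 1, 2 and 3. The groups overlapped, and STA + Il23mc mouse 3 lay far below the other mice of its group. No change passed (-0.32, SE 0.23, adjusted p = 0.567 in STA against healthy; 0.65, SE 0.24, adjusted p = 0.258 in STA + Il23mc against STA; 0.33, SE 0.23, adjusted p = 0.479 in STA + Il23mc against healthy, edgeR). After thinning to 2000 UMIs, 55.1 to 72.7% of ILC2 cells held a Cd69 UMI in the 9 mice, against 0 to 0.321% of cells in the fibroblast wells. Most synovial ILC2 cells thus held Cd69 RNA in every group. In experiment 2 the level was 1302 CPM in healthy, 1037 in mild and 1327 CPM in severe STA.

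**Figure D2:**
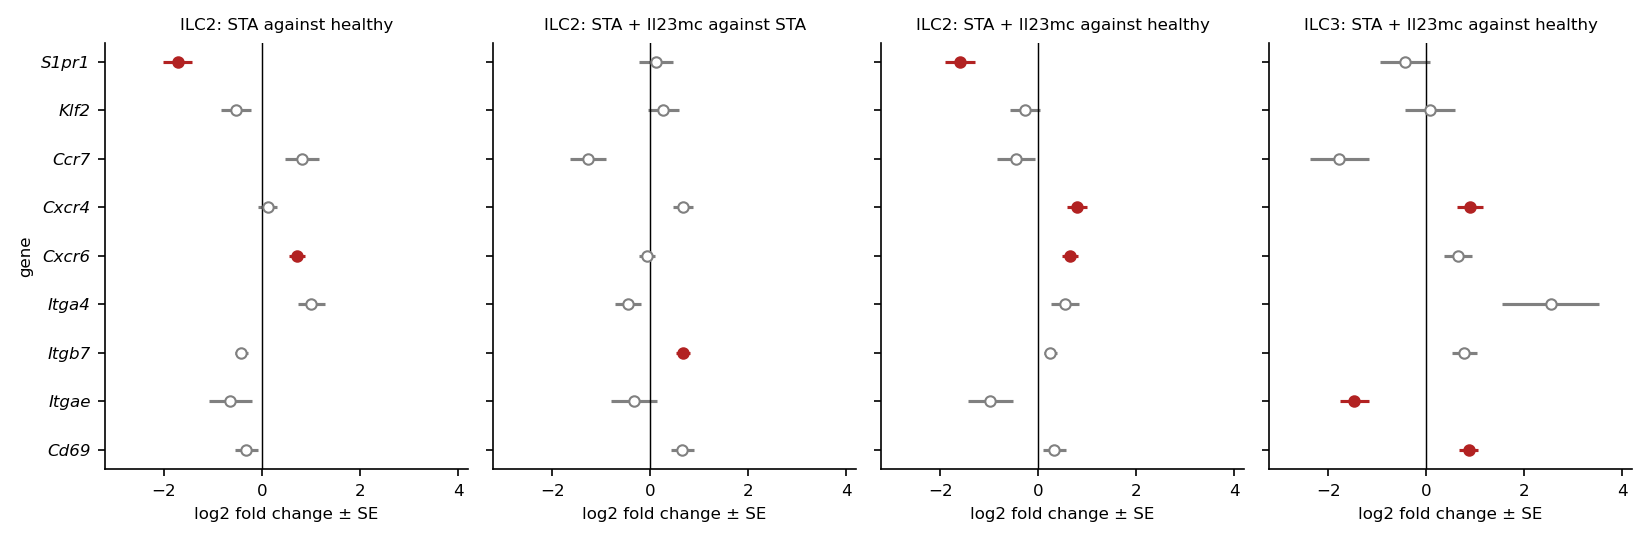
Log2 fold changes with standard errors (edgeR) of the 9 members in the 3 ILC2 comparisons and in ILC3 cells, 3 mice per group. Filled red points have an adjusted p under 0.05: S1pr1 and Cxcr6 in both comparisons with healthy, Itgb7 in STA + Il23mc against STA, Cxcr4 in STA + Il23mc against healthy, and Itgae, Cd69 and Cxcr4 in ILC3.

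Within the authors' 3 ILC2 subclasses, which were made from the same transcriptomes, levels are given as a description with no test. S1pr1 in healthy mice was 32.8 to 51.7 CPM in ILC2-1, 50.3 to 66.7 in ILC2-2 and 51.8 to 103 CPM in ILC2-3. In STA + Il23mc mice it was 13.5 to 17.6, 10.8 to 18.1 and 23.6 to 37.6 CPM. The STA + Il23mc mice thus lay below the healthy mice within each subclass, from 2 to 10 UMIs per sum in STA + Il23mc mice and 8 to 67 in healthy mice. Subclass shares moved between mice, with ILC2-3 at 12.7 to 25.9% of ILC2 cells in healthy and 18.3 to 38.0% in STA + Il23mc mice.

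Klf2 was ordered the other way across the subclasses. Healthy mice held 89.9 to 207 CPM in ILC2-1, 42.2 to 55.8 in ILC2-2 and 20.3 to 36.3 CPM in ILC2-3, and STA + Il23mc mice held 0 to 4.71 CPM in ILC2-3, from at most 2 UMIs. In healthy mice the subclass with most S1pr1 RNA, ILC2-3, was thus the one with least Klf2 RNA. Cd69 followed the order of Klf2, with 1343 to 2847 CPM in ILC2-1 and 109 to 365 CPM in ILC2-3 of healthy mice. Cxcr6 followed that of S1pr1, with 227 to 310 CPM in ILC2-1, 350 to 364 in ILC2-2 and 1118 to 1196 CPM in ILC2-3. Within each subclass the Cxcr6 levels of STA + Il23mc mice (185 to 996, 255 to 507 and 1083 to 1762 CPM) overlapped with those of healthy mice, while ILC2-3 made up a varying share of ILC2 cells, as given above. Cxcr4 was higher in every STA + Il23mc mouse than in every healthy mouse in ILC2-2 (606 to 686 against 248 to 539 CPM) and in ILC2-3 (438.0 to 870 against 264 to 437.7 CPM), and overlapped in ILC2-1. The Cxcr6 level of STA + Il23mc mouse 1 in ILC2-1 was 996 CPM, against 388 and 185 CPM in the other mice of its group.

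**Figure D3:**
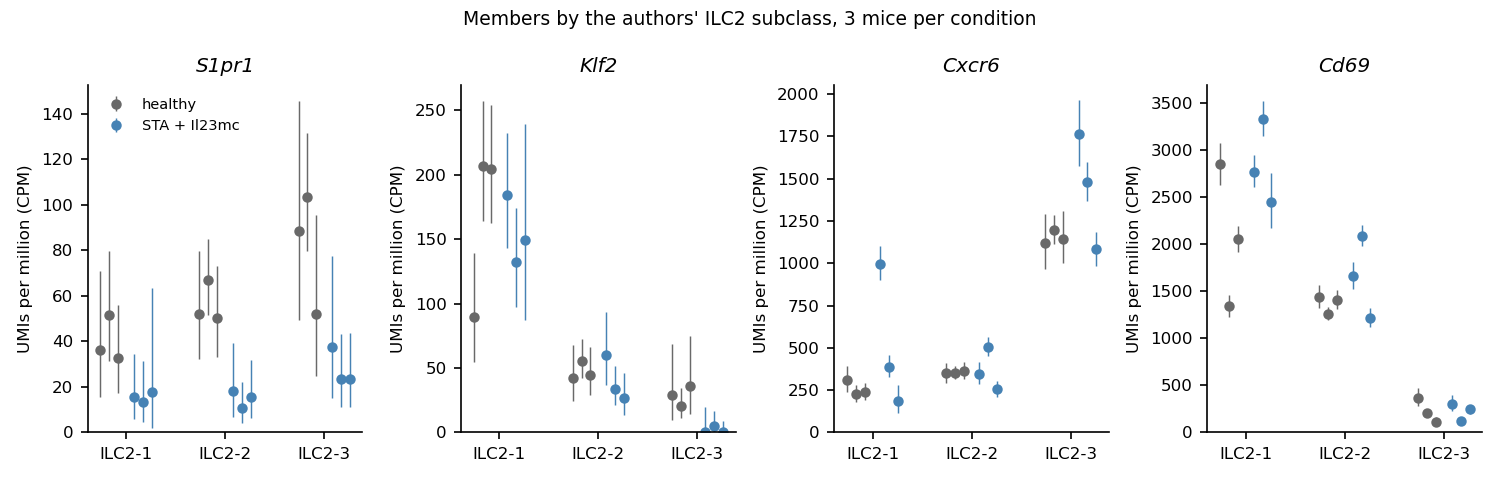
S1pr1, Klf2, Cxcr6 and Cd69 in the authors' ILC2-1, ILC2-2 and ILC2-3 cells, in CPM with 95% exact Poisson intervals, 3 mice per condition of experiment 1. S1pr1 is lower in STA + Il23mc within each subclass, while Klf2 and Cd69 are lowest and Cxcr6 highest in ILC2-3.

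Cells annotated as precursors were few (13 to 48 per healthy or STA + Il23mc mouse in experiment 1). Their Cd69 level was 618 to 1254 CPM in healthy and 1234 to 2380 CPM in STA + Il23mc mice, which overlapped. S1pr1 was read at 14.1 to 33.5 CPM in the 3 healthy mice and at 0 in the 3 STA + Il23mc mice, whose sums of 50831 to 173490 UMIs hold too few counts for a difference of this size to be read.

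Other genes of the same processes were read by role. Of 11 genes of the S1P exit pathway, 7 were tested and 0 were called in ILC2 cells in any of the 3 comparisons by edgeR or DESeq2. At an unadjusted p under 0.05 (edgeR) 1 was lower in STA against healthy, 1 higher in STA + Il23mc against STA, and 1 higher and 1 lower in STA + Il23mc against healthy. The most abundant of them, the G protein genes Gna13 and Gnai2, changed by -0.36 (SE 0.16, adjusted p = 0.320) and -0.12 (SE 0.18, adjusted p = 0.820, edgeR) in STA against healthy. Of 22 chemokine and guidance receptors, 9 were tested. Ltb4r1, the receptor for leukotriene B4, rose in STA (0.96, SE 0.20, adjusted p = 0.0210) and in STA + Il23mc against healthy (1.07, SE 0.21, adjusted p = 0.00462, edgeR). The proton-sensing receptor gene Gpr65 also rose in STA + Il23mc against healthy (1.12, SE 0.24, adjusted p = 0.0106, edgeR). In STA + Il23mc against STA 0 of the 9 were called by edgeR or DESeq2, with 1 higher and 1 lower at an unadjusted p under 0.05.

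Of 23 integrin and adhesion genes, 15 were tested; in STA + Il23mc against STA 0 were called by edgeR or DESeq2, with 1 higher and 1 lower at an unadjusted p under 0.05. Cd9, a tetraspanin that associates with integrins, fell by 2.49 in STA (SE 0.39, adjusted p = 0.00290) and by 1.89 in STA + Il23mc against healthy (SE 0.38, adjusted p = 0.00613, edgeR). With HTODemux calls and passed-on classes throughout the second was -0.97 (adjusted p = 0.0237), and with no class the first was -0.99 (adjusted p = 0.568) and the second -2.06 (adjusted p = 0.0941, edgeR). Itgav, the αV chain that pairs with several β chains, rose by 1.31 in STA + Il23mc against healthy (SE 0.18, adjusted p = 0.000405, edgeR). Of 18 residency regulators, 16 were tested, and those called by edgeR all rose; DESeq2 called 1 lower in STA against healthy, and 1, 2 and 3 were lower at an unadjusted p under 0.05 (edgeR) in STA against healthy, STA + Il23mc against STA and STA + Il23mc against healthy. Bhlhe40, a transcription factor of resident lymphocytes, rose in STA (0.90, SE 0.21, adjusted p = 0.0359) and in STA + Il23mc against healthy (0.96, SE 0.21, adjusted p = 0.0119, edgeR). Rgs1, which dampens signals of chemokine receptors, rose in STA + Il23mc against STA (0.75, SE 0.16, adjusted p = 0.0234) and against healthy (0.95, SE 0.16, adjusted p = 0.0017, edgeR). The IL-2 receptor chain gene Il2ra (0.74, SE 0.17, adjusted p = 0.0145) and Rgs16 (2.75, SE 0.72, adjusted p = 0.0292, edgeR) rose in STA + Il23mc against healthy, Rgs16 from 1.84 to 13.9 CPM. Rgs16 was not called without STA + Il23mc mouse 1 (2.11, adjusted p = 0.120), without any 1 of the healthy mice (2.42 to 3.25, adjusted p 0.0606 to 0.125) or with no class (1.71, adjusted p = 0.194, edgeR).

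The cells annotated as ILC3 were not alike between wells. In healthy mice their ILC3 marker list summed to 554 to 724 CPM beside 5335 to 5940 CPM for the ILC2 list. In STA + Il23mc mice the ILC3 list summed to 2511 to 8271 CPM. The T cell list summed to 922 to 1077 CPM in healthy and 1609 to 4942 CPM in STA + Il23mc mice, where Cd3d was at 906, 981 and 202 CPM, against 0, 1.26 and 19.98 CPM in healthy mice. Cd3e was at 571, 490 and 118 CPM in STA + Il23mc mice, against 0, 1.26 and 14.7 CPM in healthy mice. Cd3g was at 1307, 1354 and 320 CPM, against 148.5, 105.8 and 173.4 CPM. The Cd3 UMIs of healthy mice were thus mostly of Cd3g, and those of STA + Il23mc mice were of all 3 genes. Cells with a Cd3 UMI made up 34.1, 20.7 and 36.5% of the ILC3 cells in healthy and 92.0, 86.4 and 39.3% in STA + Il23mc mice. STA + Il23mc mouse 3 had 28 such cells and 118674 UMIs.

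In these cells Itgae was lower and Cd69 and Cxcr4 were higher in STA + Il23mc than in healthy mice. Of the 9 members, 2 rose and 1 fell (edgeR), where 8.74% of the 6776 genes tested rose and 7.54% fell. The groups did not overlap for 3 members higher and 1 lower, as for 14% and 19% of all genes. The median log2 change of the members was 0.65, beside -0.02 over all genes. Itgae was read at 347, 239 and 293 CPM in healthy and at 82.1, 93.0 and 169 CPM in STA + Il23mc mice, with no overlap. It fell by 1.46 (SE 0.29, adjusted p = 0.00601, edgeR), 2.76-fold. Cd69 was read at 500, 353 and 385 CPM in healthy and at 584, 847 and 758 CPM in STA + Il23mc mice, with no overlap, and rose by 0.87 (SE 0.20, adjusted p = 0.0110, edgeR). Cxcr4 was read at 528, 255 and 303 CPM in healthy and at 517, 636 and 817 CPM in STA + Il23mc mice, which overlapped, and rose by 0.90 (SE 0.27, adjusted p = 0.0422, edgeR).

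Without the Cd3 cells 0 of the 9 members passed in this class (edgeR), and 2 had an unadjusted p under 0.05. The share of all genes that passed in this fit is not given here, so the count is not read as particular to the members. Itgae was -0.82 (adjusted p = 0.418), Cd69 -0.13 (adjusted p = 0.916) and Cxcr4 1.27 (adjusted p = 0.0722, edgeR). The cells without a Cd3 UMI were 37 and 30 in STA + Il23mc mice 1 and 2, so this is also a shallower comparison. Cells with a Cd3 UMI are not like with like, since in healthy mice these UMIs were mostly of Cd3g. What this does to the split was not tested. In them Itgae stood at 131 and 180 CPM, against 355, 215 and 285 CPM in healthy mice 1, 2 and 3. Among cells with a Cd3 UMI, Itgae stood at 79.5 and 85.1 CPM, against 332, 322 and 306 CPM. Itgae was thus lower in STA + Il23mc mice 1 and 2 than in all healthy mice on both sides of the split. Cd69 was higher in both mice among cells with a Cd3 UMI (601 and 876 against 289 to 366 CPM), and among cells without one it overlapped (262 and 524 against 372 to 577 CPM); the difference between the sides was not tested. Cxcr4 was higher in both mice among cells with a Cd3 UMI (497 and 617 against 255 to 421 CPM) and among cells without one (903 and 848 against 254 to 580 CPM). The calls also fell away in leave-outs: that of Itgae without STA + Il23mc mouse 1 or 2 (adjusted p 0.0704 and 0.0584), that of Cd69 without healthy mouse 2 or 3 or STA + Il23mc mouse 2 (0.0645 to 0.0797), and that of Cxcr4 without healthy mouse 2 or 3 or any 1 of the STA + Il23mc mice (0.0752 to 0.177, edgeR). That of Cxcr4 was also lost with upper quartile factors (0.83, adjusted p = 0.0560, edgeR).

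**Figure D4:**
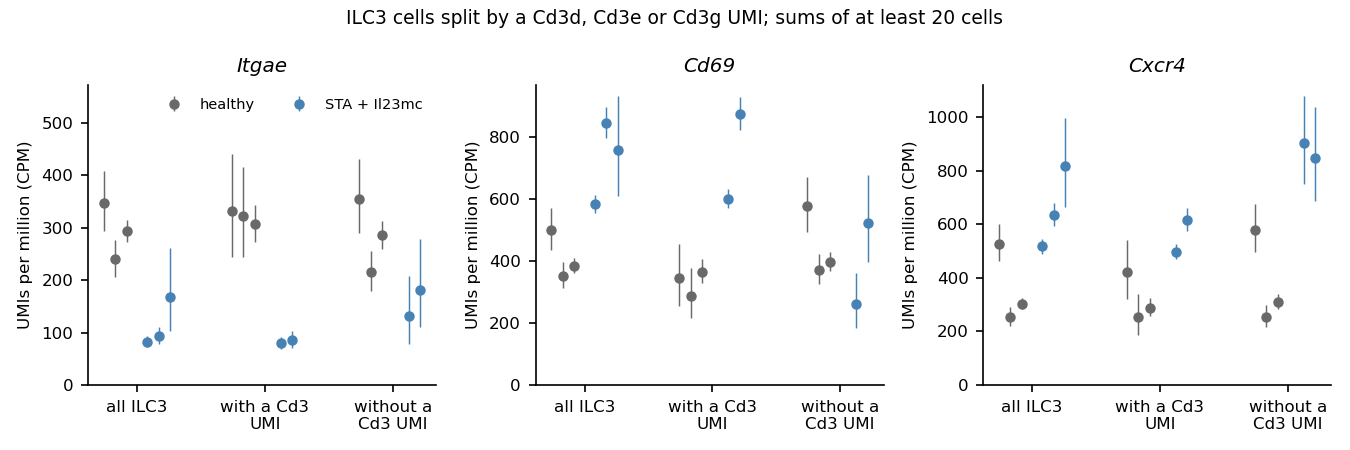
Itgae, Cd69 and Cxcr4 in cells annotated as ILC3, in all of them and split by a Cd3d, Cd3e or Cd3g UMI, in CPM with 95% exact Poisson intervals; sums of at least 20 cells are shown, which leaves STA + Il23mc mouse 3 out of the split. Itgae is lower in STA + Il23mc on both sides of the split, and Cd69 is higher in the cells with a Cd3 UMI and overlaps in those without. In healthy mice the Cd3 UMIs were mostly of Cd3g, so the cells with a Cd3 UMI differ in kind between the conditions.

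The other members did not pass in ILC3 in the main fit, whose spread also takes in the STA mice. With only the 2 groups compared, Cxcr6, Itgb7, Ccr7 and Itga4 passed (adjusted p = 0.0141, 0.0145, 0.0114 and 0.0173, edgeR). They also passed without STA mouse 2, which is in neither group (adjusted p = 0.0108, 0.0175, 0.0196 and 0.0228, edgeR). The ILC3 sum of that mouse held Igkc at 12730 CPM. S1pr1 and Klf2 passed in neither fit. Cxcr6 was 916, 966 and 941 CPM in healthy and 1634, 1581 and 1036 CPM in STA + Il23mc mice, which did not overlap (0.65, SE 0.28, adjusted p = 0.146, edgeR). Itgb7 was 153, 257 and 168 CPM against 341, 318 and 295 CPM, which did not overlap (0.78, SE 0.25, adjusted p = 0.0568, edgeR). Ccr7 was 137, 110 and 58.4 CPM against 15.4, 24.6 and 110 CPM (-1.78, SE 0.60, adjusted p = 0.0663, edgeR). S1pr1 was 22.8, 52.9 and 30.5 CPM in healthy and 24.6, 18.6 and 67.4 CPM in STA + Il23mc mice, so the groups overlapped (-0.43, SE 0.51, adjusted p = 0.626, edgeR). Klf2 changed by 0.08 (SE 0.51, adjusted p = 0.955, edgeR), and Itga4 by 2.54 (SE 0.99, adjusted p = 0.105, edgeR) at 0 to 30.8 CPM. Without STA + Il23mc mouse 1 the Itga4 change was 1.33 (adjusted p = 0.633), and without Cd3 cells it was 1.13 (adjusted p = 0.878, edgeR). Whether the change of S1pr1 differs between ILC2 and ILC3 was not tested. Experiment 2 had no Il23mc, so its ILC3 values answer another comparison, and passed-on classes recovered 54.9% of the annotated ILC3 cells of its well. There Itgae had log2 ratios to healthy of 0.71 in mild (95% counting interval 0.49 to 0.93) and 0.79 in severe STA (0.60 to 0.98), and the log2 ratios of Cxcr6 were 0.86 (0.70 to 1.03) and 0.96 (0.82 to 1.10).

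Other trafficking genes also changed in ILC3. Of 12 chemokine and guidance receptors tested, 6 rose and 3 fell in STA + Il23mc against healthy (edgeR), where 8.74% of all genes rose and 7.54% fell. Ccr2, the receptor of the monocyte chemokine CCL2, rose by 2.30 (SE 0.33, adjusted p = 0.000849, edgeR). Ccr1, Gpr18, Gpr183 and Ltb4r1 also rose, and Ccr6, Ccr8 and Ptger4 fell. Of 15 adhesion genes Itga3, Itgal and Itgb2 rose and Cd9 fell. Of 16 residency regulators Rgs1, Prdm1, Runx3 and Il2ra rose and Rgs2, Nr4a1, Nr4a2 and Tgfbr1 fell, and of 7 exit genes Foxo1 and Cd47 rose. Without the Cd3 cells 21 of these 23 called genes could be tested and 1, Ccr6, was called (-2.26, adjusted p = 0.0282, edgeR). How large a share of all genes was called in that fit is not given here. Ccr2 was then 0.14 (adjusted p = 0.938), Il2ra 0.74 (adjusted p = 0.409) and Rgs2 0.024 (adjusted p = 1.0, edgeR), and 4 genes turned sign.

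The ligands of the receptors were read in the fibroblast wells, where each condition is 1 hashtag, so no test was made. Of the fibroblast cells in the authors' table, 201 of 2431 (experiment 1) and 118 of 1120 (experiment 2) had the same UMI total there. All annotated ILCs did. HTODemux gave such fibroblast cells the authors' hashtag in 82.0 and 93.1%. What this does to the values was not tested. Cxcl12, the ligand of CXCR4, was 945 CPM in healthy, 818 in STA and 1999 CPM in the STA + Il23 hashtag of experiment 1, and 716, 1192 and 1150 CPM in the healthy, mild and severe hashtags of experiment 2. Cxcl16, the ligand of CXCR6, was 20.6, 23.4 and 28.8 CPM and 17.9, 21.4 and 20.2 CPM in the same order. Vcam1, which binds α4 integrins, was 293, 393 and 445 CPM and 154, 282 and 252 CPM, lowest in healthy in both experiments. Plpp3, an enzyme that breaks down sphingosine 1-phosphate among other lipids, was 1004, 325 and 572 CPM and 1191, 700 and 986 CPM, highest in healthy in both. Madcam1 had 0 UMIs in all 6 hashtags.

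Across the ILC2 sums of the 9 mice, the genes whose level moved most like S1pr1 among 4197 genes with a mean of at least 20 CPM were Gnai3 (Pearson r of log2(CPM + 1) 0.964), Apbb1ip (0.961) and Vezf1 (0.951). For Klf2 they were Clic1 (0.973), Fxyd5 (0.955) and S100a13 (0.946), for Cxcr6 Chst11 (0.944), Sri (0.936) and Cox17 (0.930), and for Cd69 Lockd (0.948), Dync1i2 (0.917) and Pnrc2 (0.893). The 9 points share their wells with the conditions and differ in depth, so these values describe these libraries only.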

How the data were processed

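Single synovial cells of 4 hashed ILC wells and the fibroblast wells were sequenced by the submitters with a 10x 3′ assay. The deposited matrices hold counts of UMIs per gene, made by the authors with Cell Ranger on mm10. Its version is 6.1.2 per the file headers, whereas the submitters' processing notes give 6.0.6. The deposited cell table gives classes and hashtags. Cells with at least 2000 UMIs, at least 700 genes and at most 10% mitochondrial UMIs were used. Doublets were removed through the hashtags only. Cells outside that table got hashtags by HTODemux (Seurat 5.3.0, quantile 0.99) and classes by their 15 nearest neighbours among annotated cells (30 components, 2000 variable genes, the 9 members left out); this recovered 77.2 to 99.6% of annotated ILC2 and 19.1 to 91.5% of ILC3, so no ILC3 test uses the STA group as an arm. Its mice still enter the ILC3 fit for the spread. Cells the authors left out were recognised in 33.0% (healthy) and 79.4% (STA + Il23mc) in experiment 1 and in 21.3% in experiment 2. The STA cells with passed-on classes may thus include cells that the authors would have dropped.

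UMIs were summed per mouse and class and tested with edgeR 4.0.16 (quasi-likelihood, TMM, filterByExpr, Benjamini-Hochberg over all genes tested; R 4.3.3), checked on simulated counts; DESeq2 1.42.0 was an alternative. p-values measure the spread between mice hashed into 1 well. Experiment 2 was compared with exact Poisson-based 95% intervals, shares with Wilson intervals; both cover counting error only, as UMIs of 1 animal or well are not independent animals. All 9 members are named in each comparison, and of the other lists the genes past the threshold, or else the 2 of highest mean; a few list genes are not reported here by name, though list counts and sums include them. Members and lists were chosen with earlier results of these data known. Hashtag numbers did not pair the mice.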

Additional observations from a re-analysis of the deposited data

How the results depend on the processing

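S1pr1 in ILC2 stayed lower in both comparisons with healthy under all 17 alternatives and was called in 15 (STA) and 16 (STA + Il23mc) of them; the 2 further calls against healthy for Cxcr6 held in 12 and 11, that for Cxcr4 in 12, and that for Itgb7 against STA in 12. In ILC3 the calls of Itgae, Cd69 and Cxcr4 held in 12, 11 and 8 of 16. All these counts include leave-outs of mice in neither group compared, which could hardly move the value. For Cxcr6 in STA against healthy they gave 0.7086 to 0.7105, beside 0.7088 in the main fit. Each of these calls that was lost in a leave-out was lost without a compared mouse. The number of members called in STA against healthy, 2, was 0 over all hashtag-called cells with no class (3 at an unadjusted p under 0.05, edgeR) and 1 to 2 when a mouse was left out. In STA + Il23mc against STA it was 1, and 4 with no filter on low counts, 2 without Cd3 cells, 2 with HTODemux calls and passed-on classes throughout, and 0 to 2 when a mouse was left out. In STA + Il23mc against healthy it was 3, and 1 to 3 when a mouse was left out. In ILC3 it was 3, and 6 with no filter, 7 with only the groups compared, 0 without Cd3 cells, and 0 to 7 when a mouse was left out: 7 without STA mouse 2, 5 without STA mouse 1, 1 without healthy mouse 3 or STA + Il23mc mouse 1, and 0 without STA + Il23mc mouse 2. The share of all genes called under each setting is not given here, so shifts in these counts are not read as particular to the members. The hashtag number as a replicate block gave 2, 1, 4 and 2 calls in these 4 comparisons; same-numbered mice did not deviate together (r -0.15 to 0.25 over 9 pairs), so they share only a number. Uncalled log2 changes that turned sign were, in STA against healthy, Cxcr4 (-0.056 to 0.23 in leave-outs) and Gnai2 (0.0096 with HTODemux calls throughout). In STA + Il23mc against STA they were Klf2 (-0.30 without Cd3 cells, -0.26 with no class, -0.21 to 0.56 in leave-outs), Cxcr6 (0.50 with no class, -0.16 to 0.069 in leave-outs), S1pr1 (-0.17 to 0.41 in leave-outs), Itgae (-1.24 to 0.0098), Cd44 (-0.13 to 0.063), Gna13 (0.0415 without Cd3 cells, 0.079 with no class, 0.0049 with HTODemux calls throughout, -0.090 to 0.070), Gnai2 (0.23 with no class, -0.16 to 0.18), Ccr2 (0.41 with no class, -0.20 to 0.063) and Gpr183 (0.40 with no class, -0.11 to 0.11). In STA + Il23mc against healthy they were Klf2 (-0.74 to 0.032 in leave-outs) and Gnai2 (0.088 with no class, -0.28 to 0.064 in leave-outs). In ILC3, Klf2 was -0.0195 with DESeq2, -0.0148 with upper quartile factors, -0.29 without Cd3 cells, -0.30 with no class, -0.43 with the block and -0.45 to 0.34 in leave-outs. Also in ILC3, without Cd3 cells S1pr1 turned to 0.045, Cd69 to -0.13, Ccr7 to 1.54, Rgs2 to 0.024, Itgb2 to -0.20, Gpr183 to -0.18 and Cd47 to -0.16. In cells with against without a S1pr1 UMI, thinning left only healthy mouse 2, and leaving out Cd3 cells left healthy mice 2 and 3, so these values are no means over the 4 mice. In the planned thinned draw and in a second one chosen after seeing the data, healthy mouse 2 stood at -0.67 and 0.69 for Klf2 (0.64 unthinned), -0.82 and -1.56 for Ccr7 (-0.90), 0.30 and -0.23 for Cxcr6 (0.10), -0.0022 and -0.0003 for Itgb7 (0.033) and -0.062 and 0.34 for Itgae (0.42). Without Cd3 cells the mean over both mice was -0.55 for Klf2, -0.020 for Itgb7 and -0.39 for Itgae (n = 2). In leave-outs (n = 3) Klf2 was -0.085 to 0.42, Ccr7 -0.21 to 1.43 and Itgae -0.049 to 0.65, and in annotated cells (n = 3) Itgae was -0.049. The cause of these shifts was not tested. With 3 mice per group and 9 to 153 S1pr1 UMIs per ILC2 sum, smaller changes of the low genes S1pr1, Klf2, Ccr7, Itga4 and Itgae may have been missed. No limit of detection was computed, and each condition of experiment 1 is 1 well.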

Other observations

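The cells annotated as ILC3 fall into the authors' ILC3-1 and ILC3-2, which are described here with no test. Itgae in ILC3-1 was 285, 183 and 202 CPM in healthy mice 1, 2 and 3 and 43.5 and 46.3 CPM in STA + Il23mc mice 1 and 2. In ILC3-2 it was 375, 279 and 337 CPM in healthy and 113 and 142 CPM in STA + Il23mc mice 1 and 2. Itgae was thus lower in these STA + Il23mc mice within both subclasses. Cd69 in ILC3-2 was 296, 183 and 270 CPM in healthy and 498 and 719 CPM in STA + Il23mc mice 1 and 2, while in ILC3-1 it was 966, 594 and 623 CPM and 690 and 967 CPM, which overlapped. The sums of STA + Il23mc mouse 3 held 9 and 19 cells and are not compared.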
